A study of Homo sapiens with 9 samples.

Results

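The transcription units described here had lost nascent transcription at both times after ultraviolet (UV) irradiation, in every one of the 3 cell lines studied. They were chosen by their measured values. An identifier was kept when its mean signal over the first 10 kb downstream of its transcription start averaged 2 or more in the 3 mock-treated libraries, and when log2(signal + 0.5) lay at least 0.8 below that of its own line's mock library at 3 h and at 16 h in each line. Of 9805 identifiers listed in any library, 7936 were listed in all 9 and 2832 met the mock minimum (the tested identifiers). 25 members passed the whole rule, 0.883% of those tested. Members are numbered 1 to 25 from the highest to the lowest mean mock signal, and the 2 extremes are also given by their UCSC identifiers, since the files do not pair identifiers with gene names. Member 1, uc003uxt.4, had the highest mock signal, and member 13, uc001qlq.2, had the lowest mean difference from mock.

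The cells were RPE1, a human retinal pigment epithelium line, and all groups, mock included, shared the background named iCas9 p53/puro-dKO, a Cas9-carrying line with p53 and the puromycin cassette knocked out by that name. The WT line had STK19 intact, the KO line was an STK19 knockout, and the rescue line was the STK19 knockout with STK19 added back (STK19-TY), so KO and rescue share the same knockout. The number of clones and the promoter of the added STK19 were not stated. Each line gave 1 mock library, 1 library at 3 h and 1 at 16 h after 12 J/m2 of UV-C. Nascent RNA was labelled with 2 mM bromouridine for 30 min, with the pulse begun 2.5 h or 15.5 h after UV by the sample labels, although the general protocol can be read as a pulse begun at 3 h or 16 h. No group had a second library, so no value below has a replicate error.

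UV-C makes bulky lesions in DNA that stall RNA polymerase II when they lie in the transcribed strand. Transcription-coupled repair removes such lesions after the stalled polymerase is recognised, and STK19 is a known factor of this pathway. Bromouridine sequencing (BrU-seq) captures RNA made during a short pulse, so the profile along a gene shows where polymerases were elongating. Long genes are hit more often than short ones, and the signal beyond the first lesion is the part that a stalled polymerase fails to make.

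The deposited signal is coverage in 200-bp bins over 100 kb on each side of the start, brought by the authors to a similar total in each library (1.86e+07 to 2.13e+07 summed over bins and identifiers). It is a share of each library, with no spike-in named, so a fall in the total amount of nascent RNA would not show. In such bulk RNA, less transcription per cell and fewer transcribing cells cannot be told apart. Bin values were whole multiples (within 0.02 of a step) of a library-specific step, from 0.373 in WT 16 h to 4.88 in KO 3 h, which gives a relative depth from 1 in KO 3 h to 13.1 in WT 16 h. KO 3 h was the shallowest library: its members held 0 to 4241 steps over 0 to 10 kb, with a median of 13, and 12 members held 10 or fewer, while no member held fewer than 57 steps in any mock library.

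The rule asked for a fall in each of 6 comparisons with mock, and the 3 h and 16 h comparisons of a line share its mock library. Among tested identifiers, the limit of -0.8 was met at 3 h by 6.39% in WT, by 8.79% in KO and by 9.71% in rescue. At 16 h the shares were 17.5%, 12.1% and 7.87% in the same order. All 3 lines met it in 101 identifiers (3.57%) at 3 h and in 120 (4.24%) at 16 h, and 25 did so at both times. These shares are the background of the choice, and nothing about the members is read from them.

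The members were spread widely in abundance. Mean mock signal ran from 2.04 to 587 with a median of 7.05, close to the median of 6.46 over all tested identifiers. 9 members had a mock mean of 10 or more, and 10 had less than 4.

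Their signal after UV was a small part of mock. At 3 h the median member kept 17.5% of its mock signal in WT, 21.9% of it in KO and 18.9% of it in rescue, and at 16 h 15.3%, 10.5% and 18.1%. As log2 differences the members' medians were -1.76, -1.85 and -1.82 at 3 h and -1.80, -2.64 and -1.81 at 16 h, in the order WT, KO, rescue. All tested identifiers had medians of 0.48, 0.19 and 0.21 at 3 h and -0.01, 0.45 and 0.53 at 16 h. Averaged over the 6 comparisons, members ranged from -2.83 to -1.28 with a median of -2.10. The 9 abundant members had a median of -2.12, and the 16 with a mock mean under 10 had one of -2.05. The 0.5 added before the logarithm limits how far a sparse member can fall, so these medians do not compare the share of signal lost.

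**Figure D1:**
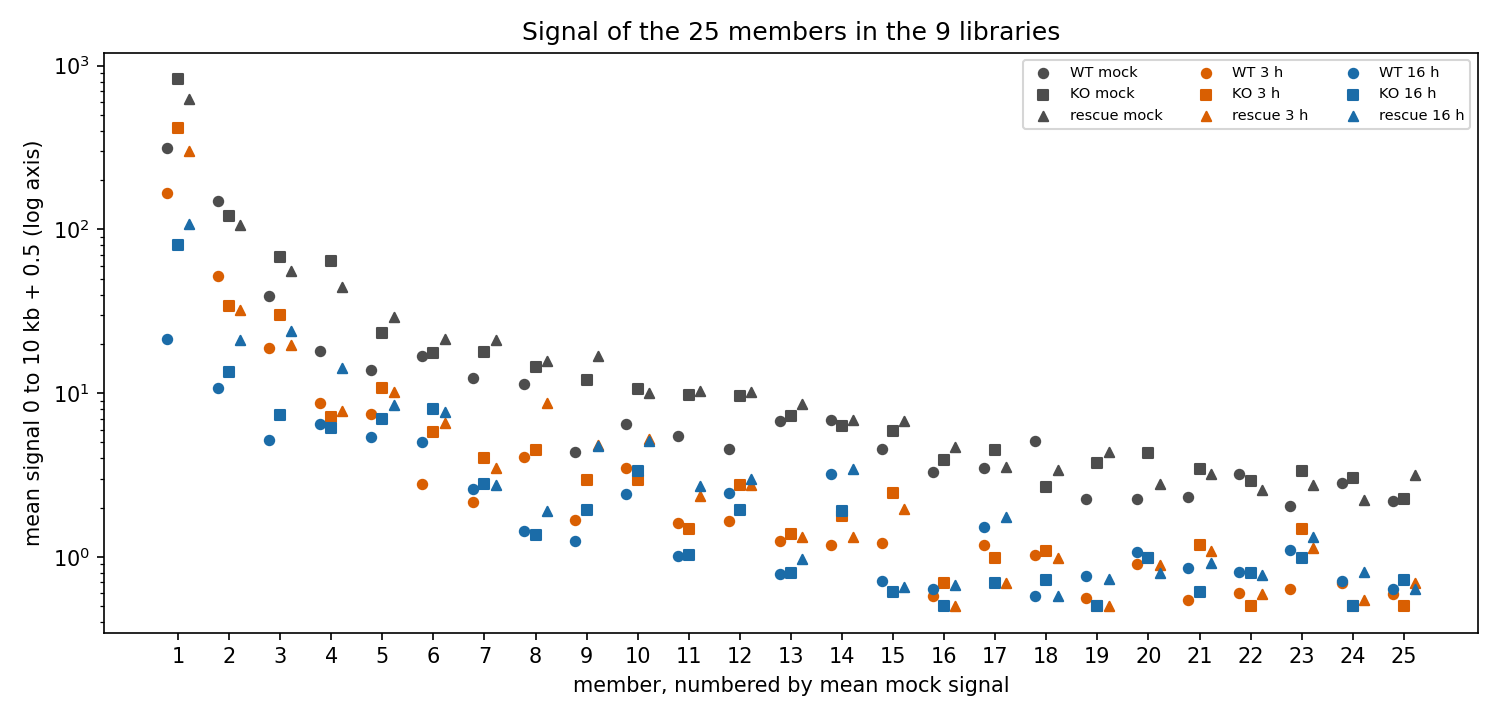
Mean signal over 0 to 10 kb (with 0.5 added, log axis) of the 25 members, numbered by mean mock signal, with 1 point per library. Grey points are mock, orange 3 h and blue 16 h, with circles for WT, squares for KO and triangles for rescue; the grey points lie on top within each line, and in 23 members every grey point lies above every coloured one.

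In 23 of the 25 members, every irradiated library was below every mock library, whichever line it came from; 3.67% of tested identifiers had that order. The exceptions were members 1 and 9, in which the WT mock library was low. Both kept the order within each line, as the rule requires.

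Member 1, uc003uxt.4, was the most strongly transcribed member. In the order WT, KO, rescue, which is kept below, its mock signal over 0 to 10 kb was 313, 824 and 623. At 3 h the values were 166, 414 and 300, and at 16 h they were 20.9, 79.8 and 108. About the same share of mock was left at 3 h in each line, and a far smaller one at 16 h.

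Member 2 followed the same course at a lower level. Under mock treatment its signal was 148, 120 and 106 in WT, KO and rescue, 51.5, 33.7 and 31.7 at 3 h, and 10.3, 13.0 and 20.6 at 16 h. The 3 treatments did not overlap. Member 8 also went on falling, from 10.9, 14.0 and 15.2 in mock to 3.56, 4.002 and 8.25 at 3 h and to 0.941, 0.868 and 1.41 at 16 h.

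Member 3 split by line at 16 h. It had 38.8, 67.8 and 55.5 in mock and 18.3, 29.5 and 19.2 at 3 h (WT, KO, rescue). At 16 h it had 4.66 in WT and 6.87 in KO, but the rescue library had 23.4. In that line the later value was thus at the level of the earlier one.

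Members 4, 6, 7 and 9 had undergone most of their loss by 3 h. Member 7 went from 11.9, 17.3 and 20.7 in mock to 1.67, 3.51 and 2.98 at 3 h and 2.09, 2.30 and 2.27 at 16 h. Member 6 went from 16.5, 17.0 and 21.0 to 2.28, 5.27 and 6.10 at 3 h and 4.52, 7.51 and 7.17 at 16 h. The 16 h values of member 6 were the higher ones in all 3 lines.

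Member 4 had 17.6, 63.5 and 43.9 under mock treatment, and 8.16, 6.64 and 7.27 at 3 h. At 16 h it had 5.94, 5.62 and 13.8. The WT mock library was the lowest of the 3 in this member, as it was in member 9. Member 9 had 3.87, 11.6 and 16.5 in mock, 1.17, 2.44 and 4.29 at 3 h and 0.754, 1.43 and 4.25 at 16 h.

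Member 5 had the mildest loss of the abundant members. It went from 13.4, 22.9 and 28.8 in mock to 7.01, 10.2 and 9.71 at 3 h and 4.91, 6.45 and 8.02 at 16 h. The largest part left was in WT at 3 h, 52.3% of mock, and the smallest in rescue at 16 h, 27.9%.

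Among the 16 sparser members, mock values lay between 1.54 and 10.1 and irradiated values between 0 and 4.78. Member 13, uc001qlq.2, had 6.28, 6.79 and 8.08 in mock. It had 0.745, 0.878 and 0.830 at 3 h and 0.284, 0.302 and 0.476 at 16 h. All 3 lines were alike at each time, and its mean difference of -2.83 was the lowest of the members.

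5 of the sparser members had a value of 0 in at least 1 irradiated library. These were 4 members in KO 3 h, 2 in rescue 3 h and 3 in KO 16 h. A value of 0 allows up to 3 steps, a signal of 0.293 in KO 3 h, 0.146 in rescue 3 h and 0.113 in KO 16 h, which covers counting error only. The log2 difference of such a value depends on the 0.5 added before taking the logarithm.

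The rule's limit cut through a continuous range. The members closest to it had a highest difference of -0.84, -0.89 and -0.89, and the nearest identifiers outside it had -0.76, -0.76 and -0.76. 5 members lay within 0.1 inside the limit and 8 other identifiers within 0.1 outside it. A further count of 44 tested identifiers met the limit in 5 of the 6 comparisons.

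The loss included the start in most members. Over the first 1 kb downstream of the start, 22 of 25 members fell, taken here as a mean difference from mock over the 6 comparisons of -0.8 or less. Of all tested identifiers, 8.58% fell there. Among those with a mock mean of 1 or more at the start, 21 of 23 members and 8.90% of tested identifiers fell. Depth limits these counts in sparse members. Over 1 kb in KO 3 h, 1 step is a signal of 0.976, and a value of 0 allows up to 3 steps. Members 15, 19, 24 and 25, counted as fallen, had 0 there. Their start mock means of 1.02, 0.526, 1.78 and 1.65 lie under that allowance, so KO 3 h does not resolve their fall. The members' median at the start was -1.89 and that of all tested identifiers 0.19. 18 members were below mock at the start in all 6 comparisons, and 9 passed -0.8 in all 6. Neither count was made over all tested identifiers, so neither has a background share. Over the rest of the window, 1 to 10 kb (the body), 25 of 25 fell, with a median of -2.11, against 6.53% of tested identifiers. Start and body are parts of the window that chose the members, so these counts are descriptions without a test.

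Start and body changed by similar amounts in many members. The start's mean difference minus the body's had a median of 0.14, with a range from -0.74 to 1.72, and was within 0.5 of 0 in 14 members. The start had fallen further than the body in 8. Over all tested identifiers the same quantity had a median of -0.09. The counts of 14 and 8 were not made over all tested identifiers, so they have no background share.

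**Figure D2:**
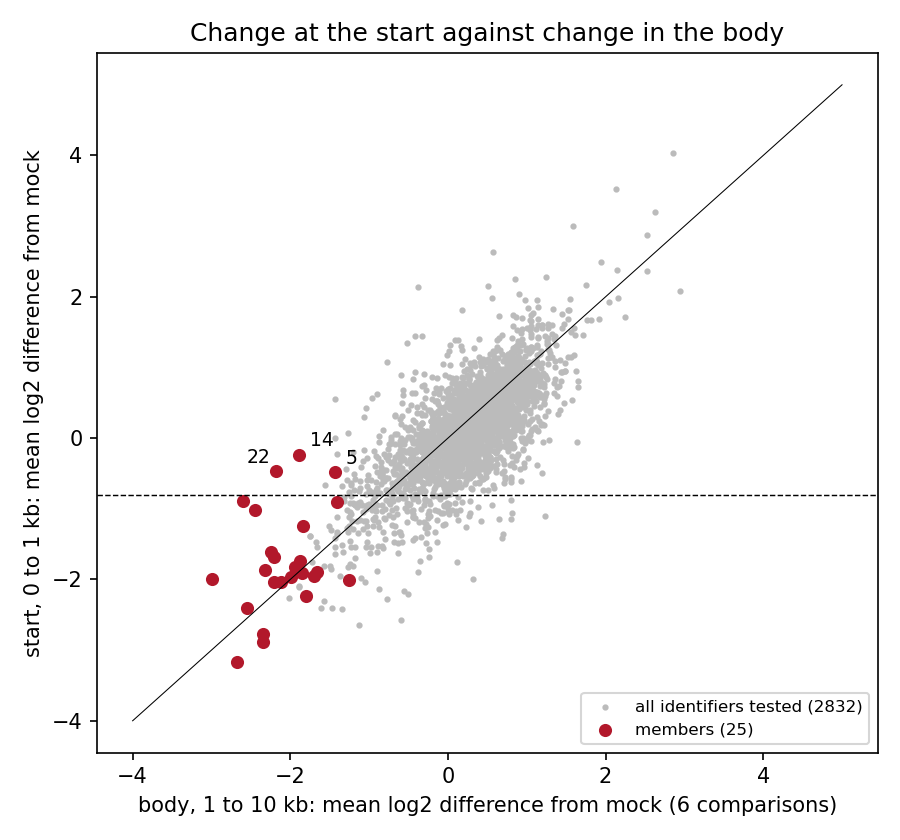
Mean log2 difference from mock over the 6 comparisons at the start (0 to 1 kb, vertical axis) against the body (1 to 10 kb, horizontal axis) for the 2832 tested identifiers (grey) and the 25 members (red). The line marks equal change and the dashed line -0.8. Members 5, 14 and 22, marked by number, are the 3 above it, and member 22 had too little mock signal at the start to reach it.

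The signal was not concentrated in a single peak. The highest 1-kb window of the mock libraries held 13.3 to 28.6% of a member's signal over 0 to 10 kb, with a median of 17.0%, and was the first 1 kb in only 2 members. The start's mock signal was above the body's in 12 members and under 50% of it in 6. None of these values was taken over all tested identifiers, so they do not set the members apart.

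Member 2 lost its start at once. Over 0 to 1 kb it had 205, 158 and 107 in mock, 36.2, 22.4 and 10.7 at 3 h and 12.8, 20.4 and 27.4 at 16 h. The mean difference at the start was -2.84 at 3 h and -2.94 at 16 h, while the body went from -1.58 to -3.12. Member 7 had the opposite order: its body stood at -2.50 at 3 h and -2.59 at 16 h, while its start went from -1.94 to -2.88. Its start had 19.2, 16.4 and 18.2 in mock, 3.19, 3.90 and 6.34 at 3 h and 1.27, 3.02 and 1.99 at 16 h.

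Member 1 lost its body before its start. The start of uc003uxt.4 had 419, 910 and 682 in mock and 308, 987 and 506 at 3 h, a mean difference of -0.25. In the KO line the start was higher at 3 h than in mock. At 16 h the start had 19.3, 173 and 115, a mean difference of -3.12. Between 1 and 10 kb, the same member had 301, 815 and 617 in mock and already 150, 350 and 277 at 3 h, with mean differences of -1.12 at 3 h and -3.29 at 16 h. From 10 to 25 kb it had 58.3, 130 and 117 in mock, 25.6, 28.6 and 41.5 at 3 h and 5.67, 12.1 and 21.8 at 16 h, mean differences of -1.60 and -3.01. The 3 h loss in this member therefore grew with distance from the start, and the 16 h loss was of similar size at all 3 distances.

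Member 8 had the same order of events at the start. It had 15.7, 16.8 and 23.7 in mock, 9.73, 8.78 and 17.6 at 3 h and 1.72, 1.51 and 2.10 at 16 h, mean differences of -0.66 and -3.06. Taking the times apart, 19 members fell at the start at 3 h and 23 at 16 h, against 13.8% and 10.3% of tested identifiers.

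3 members did not count as fallen at the start. In member 5 the start had 2.71, 2.85 and 4.62 in mock and 3.04, 3.90 and 3.42 at 3 h, so it was not below mock in WT and KO, and 1.12, 1.51 and 1.55 at 16 h. In member 14 it had 0.541, 3.36 and 2.99 in mock and 3.06, 2.64 and 4.43 at 16 h, which gave a mean of 0.66 at 16 h after -1.12 at 3 h. Both had weak starts in mock, at 14.3% and 34.8% of the body. In member 22 the start had a mock mean of 0.22, with 0 in every irradiated library, and its mean difference was -0.46 from that low level. Member 19 also had a start signal under 1 in mock, but counts as fallen there, with a mean difference of -0.89.

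**Figure D3:**
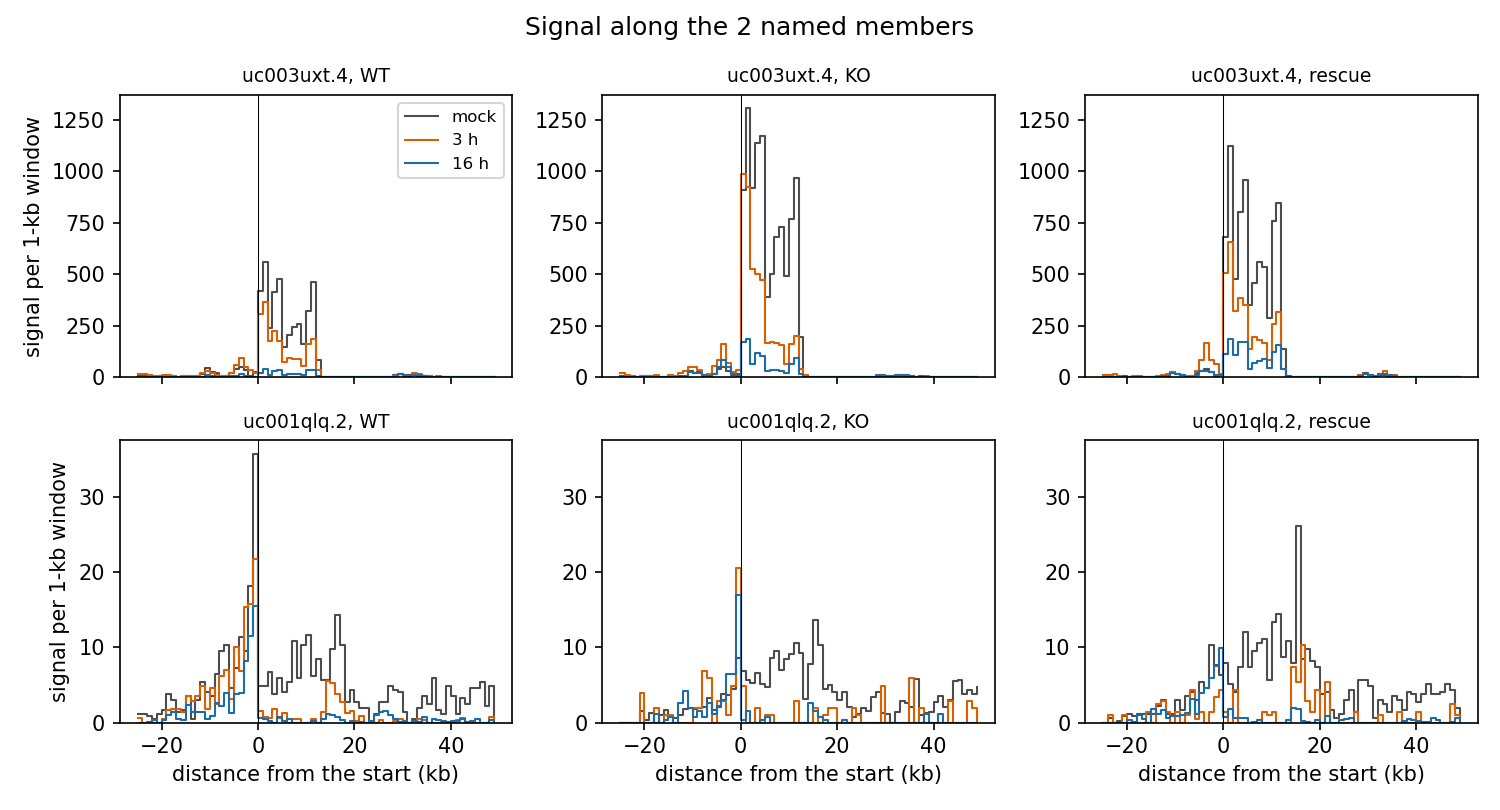
Signal in 1-kb windows from 25 kb upstream to 50 kb downstream of the start (vertical line) for uc003uxt.4 (top) and uc001qlq.2 (bottom) in WT, KO and rescue, with mock in grey, 3 h in orange and 16 h in blue. In uc003uxt.4 the signal lies over the first 15 kb, with the start kept at 3 h and low at 16 h; in uc001qlq.2 the signal just upstream of the start remains after UV while that downstream is low.

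The upstream flank carried mock signal in most members, and there the loss often reached across the start. Flank values are given for members with a mock mean of 1 or more in the stretch concerned. From 5 to 1 kb upstream 19 members were measured and 14 of them fell, against 12.4% of tested identifiers measured there. In the last 1 kb before the start 16 of 19 fell, against 13.8%. From 25 to 5 kb upstream 9 of 17 fell, against 11.2%. These windows were not part of the rule, but they come from the same comparison with the same mock libraries, so they too are given without a test.

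Members differed in how much upstream signal they had. In 12 members the signal 5 to 1 kb upstream was under 25% of the body's in mock. 10 of these fell at the start, and the upstream flank could be measured in 6, of which 3 fell. In 4 members it was 25% to under 100% of the body's, and all 4 flanks fell. In 9 it was at or above the body's, where all 9 fell at the start and 7 fell upstream. Of these 9, counted in 5-kb windows as below, the loss ran unbroken across the start to -25 kb in members 11, 16, 17, 20 and 21. It ran to -10 kb in member 25 and to -5 kb in member 23, and did not cross the start in members 10 and 13. Whether such a stretch is 1 transcript was not tested. The sizes of these 3 classes were not counted over all tested identifiers. In members 10 and 13 the flank from 5 to 1 kb upstream did not reach the limit, with means of -0.73 and -0.45.

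Member 16 shows the last kind. From 5 to 1 kb upstream it had 9.61, 16.6 and 17.4 in mock, 4.22, 3.90 and 7.69 at 3 h and 1.03, 0.755 and 1.91 at 16 h. Its mock signal there was 435% of that in the body. Member 8 had 9.20, 9.15 and 7.89 in mock, 1.67, 0.976 and 0.854 at 3 h and 0.635, 0.472 and 0.747 at 16 h. Its upstream flank was thus already low at 3 h, when its start was still at a mean of -0.66.

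Members 4 and 7 had their deepest upstream loss next to the start, although both also fell from 5 to 1 kb upstream, with means of -1.61 and -1.30. In the last 1 kb before it, member 7 had 25.7, 18.2 and 17.1 in mock, 0.304, 2.93 and 0 at 3 h and 0.747, 1.13 and 1.77 at 16 h. Member 4 had 28.7, 20.3 and 21.8 in mock, 2.43, 2.93 and 0 at 3 h and 5.90, 3.02 and 10.4 at 16 h. The mean differences of -3.92 for member 7 and -2.86 for member 4 were the lowest of the members in that stretch.

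In other members the flank was kept or rose. Member 13, uc001qlq.2, had 35.7, 8.54 and 6.26 in the last 1 kb before its start in mock, 21.7, 20.5 and 4.39 at 3 h and 15.5, 17.0 and 9.96 at 16 h. Its WT values fell and its KO values rose, and the mean difference was 0.08, against -1.99 in the first 1 kb after the start. The break in signal lay at the start itself. Member 1 had 33.3, 33.2 and 24.9 from 5 to 1 kb upstream in mock and 61.3, 86.6 and 100.3 at 3 h, higher in all 3 lines with a mean difference of 1.41. At 16 h it had 8.89, 49.9 and 24.7, a mean of -0.43 over lines that differed in direction. Member 10 had 30.9, 21.5 and 23.8 in mock and 10.7 to 19.0 in the 6 irradiated libraries, so each irradiated library was below its mock although the mean of -0.73 did not reach the limit.

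Downstream of the window the loss went on. From 10 to 25 kb 21 members were measured and 21 fell, against 8.75% of tested identifiers. From 25 to 50 kb 11 of 16 fell, against 11.1%, and from 50 to 100 kb 7 of 13, against 16.3%. Counted in 5-kb windows that each had a mock signal of 1 or more and a mean difference of -0.8 or less, the unbroken stretch of loss around the start had a median length of 35 kb. It reached 25 kb or more downstream in 14 members and the end of the files at 100 kb in members 5 and 8. In 7 members, member 22 among them, it ended within 10 kb. A stretch also ends where the mock signal is under 1. That was so from 10 to 15 kb in members 4, 17 and 23, with mock means of 0.114, 0.170 and 0.921. It ran upstream across the start in 15 members, as far as -25 kb, the limit looked at, in 7. Member 22 has a length of 0 by this count because its first 5 kb lay under the mock minimum. These stretches were not measured in all tested identifiers, so their lengths and counts have no background share.

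**Figure D4:**
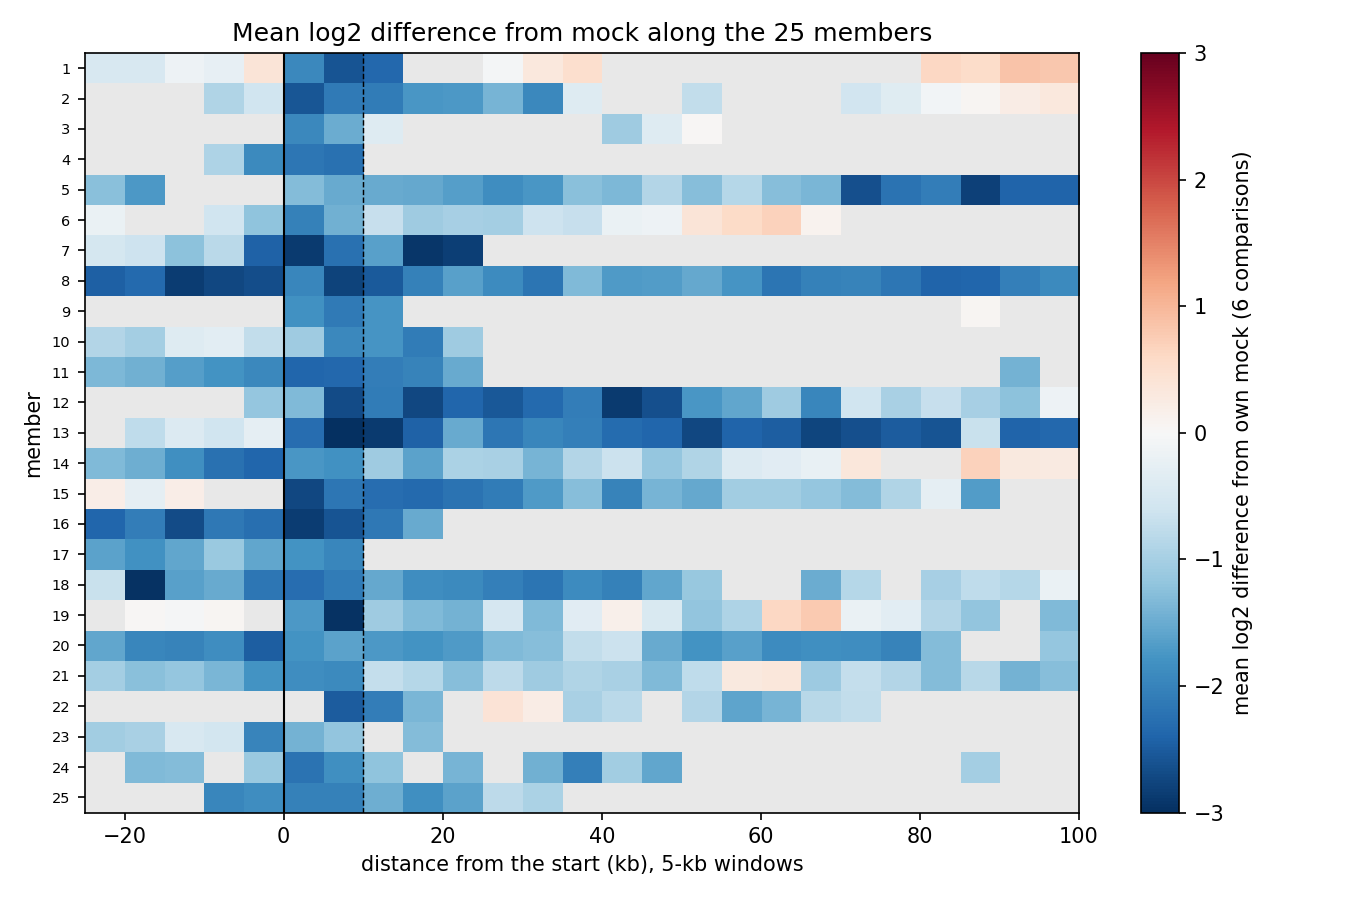
Mean log2 difference from mock over the 6 comparisons in 5-kb windows from 25 kb upstream to 100 kb downstream of the start, 1 line per member; blue is lower than mock, red higher and grey a mock mean under 1. The dashed line marks 10 kb, the end of the window that chose the members. Member 8 is blue from end to end. In member 1 the blue stretch ends 15 kb after the start, where its mock signal ends too.

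Some of the other listed starts lie within the same 200 kb. Matching the profiles bin by bin (Pearson correlation of 0.98 or more over at least 100 kb of overlap) placed 20 other identifiers near 11 members. No member matched another member, so the 25 profiles are of separate stretches by this measure. In 14 of the 20 the neighbour runs in the opposite direction, and its profile, turned round, matched the member's with a correlation of up to 0.9995. The deposited coverage therefore does not separate the strands, and signal in a flank can belong to a gene on either strand.

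7 of the 20 neighbours had enough mock signal to be tested and 1 of these fell, with a mean difference of -1.28; it starts upstream of member 17, at -11.2 kb, and runs the same way. The nearest neighbour by this match starts upstream of member 10, at -6.6 kb, in the opposite direction, with a mock mean of 49.6 and a mean difference of -0.40. None of the 20 starts within 25 kb downstream of a member. The match leaves out candidates with a lower correlation, up to 0.975, and identifiers not listed in all 9 libraries. Other starts may therefore lie closer. For member 1 the tested neighbours start at -41.6 kb and 38.6 kb, with mean differences of -0.32 and 0.26, so its own loss stopped short of both.

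From 3 h to 16 h the members did not move together. Compared with 3 h, 12 of 25 members were lower at 16 h in WT, with 17 in KO and 13 in rescue. Of all tested identifiers, 75.0%, 36.2% and 35.7% were lower, in the same order. The members' median changes were 0.04, -0.52 and -0.01, against -0.47, 0.24 and 0.31 for all tested identifiers. 8 members were lower at 16 h in all 3 lines, against 19.3% of tested identifiers. A rise in all 3 lines was seen in 3 members, and its share of tested identifiers was not counted. Both times entered the rule, so these counts have no test.

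Of the 9 members with a mock mean of 10 or more, 7, 8 and 6 were lower at 16 h in WT, KO and rescue, and 5 in all 3, among them member 9, which changed by only -0.01 in rescue. Their medians were -0.47, -0.63 and -0.26, so in WT the 9 were at the median of all tested identifiers, -0.47. Member 1 changed by -2.96, -2.37 and -1.47 between the times. Member 2 changed by -2.27, -1.34 and -0.61, and member 8 by -1.49, -1.72 and -2.20. Member 6 was the abundant one that rose in every line, by 0.85, 0.47 and 0.22.

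**Figure D5:**
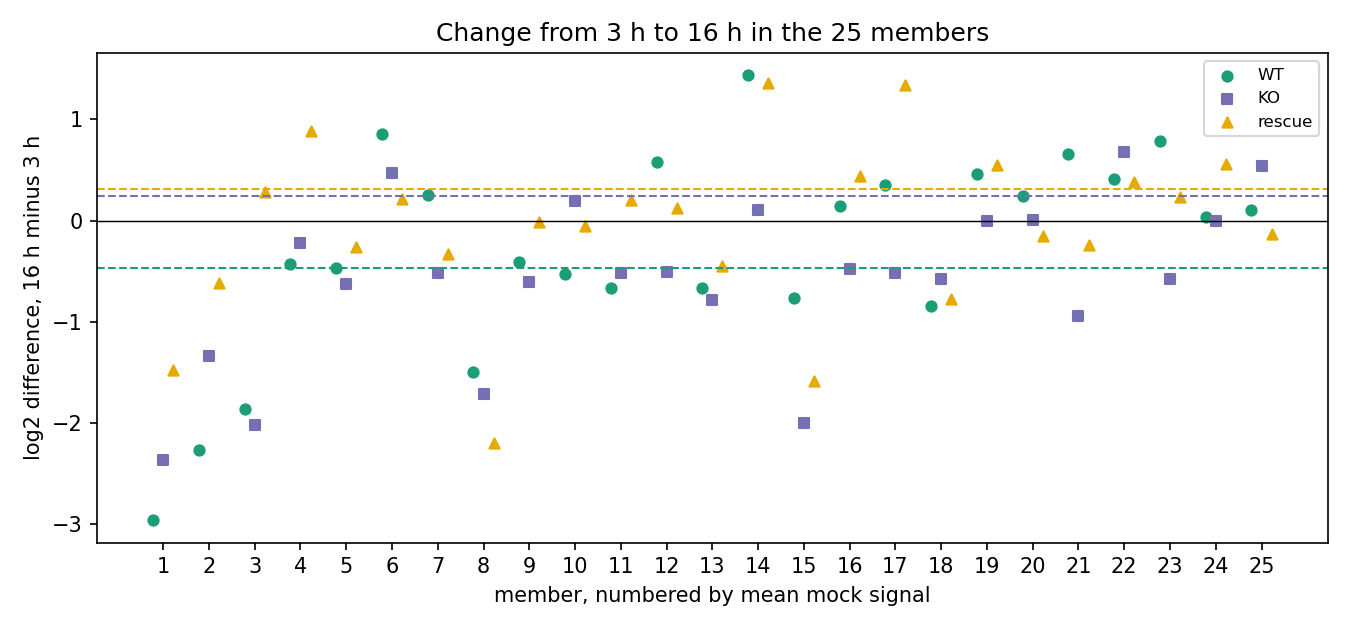
Log2 difference between 16 h and 3 h over 0 to 10 kb for each of the 25 members in WT (circles), KO (squares) and rescue (triangles). Dashed lines give the median of all tested identifiers in the line of the same colour; members 1, 2 and 8 lie below 0 in each line and member 6 above it.

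Levels over 0 to 10 kb were compared between lines with limma across all 2832 tested identifiers, with the 3 conditions (mock, 3 h, 16 h) as a block and Benjamini-Hochberg adjustment. A p-value here measures how steady a line difference was over the conditions, not over separate cultures. Each line had 1 library per condition, so line and library preparation cannot be told apart. The fit takes the same window and the same 9 libraries as the rule. The members' values from it are therefore a description, with no p-value and no call for a member.

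Between KO and WT, 6.92% of tested identifiers passed an adjusted p of 0.05, 3.88% higher and 3.04% lower in KO. The split of 110 higher and 86 lower turns to 11 and 24 without the level filter and to 193 and 559 without the 16 h libraries. Member 1 had the largest difference of the members, higher in KO by 1.54 on the log2 scale (SE 0.41), in mock and at both times after UV. Over the members the median difference was 0.31, against a median of -0.09 for all tested identifiers. Above 0 were 17 of the 25 members, against 43.1% of tested identifiers. Leaving out the shallow KO 3 h library, an alternative chosen after seeing the data, left 71 identifiers that passed, in place of 196.

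Between rescue and WT, 8.83% of tested identifiers passed, 3.11% higher and 5.72% lower in rescue. This split turns to 173 higher and 110 lower, from 88 and 162, when libraries are scaled by a trimmed mean, and to 28 and 9 without the 3 h libraries. The 2 largest differences of the members were both higher in rescue: member 1 by 1.39 (SE 0.41) and member 9 by 1.80 (SE 0.34). The members' median was 0.51, against -0.16 for all tested identifiers. Above 0 were 19 of the 25 members, against 36.9% of tested identifiers. Member 9 in KO against WT differed by 0.97 (SE 0.34). For both pairs, the number of tested identifiers that passed depends on which conditions are counted, as given at the end.

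Between rescue and KO no identifier passed the limma test, 0% in either direction, with 43 at an unadjusted p under 0.05. The median difference of the members was 0.16. Member 1 differed between rescue and KO by -0.15 (SE 0.41).

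The balance of start over body was compared in the same way, as log2 of (signal over 0 to 1 kb + 1) over (signal over 1 to 10 kb + 1), in 3088 identifiers that include 23 members. In limma 0% passed in any of the 3 pairs of lines. At an unadjusted p under 0.05 there were 135 identifiers for KO against WT, 70 for rescue against WT and 187 for rescue against KO. The members' medians were 0.01, -0.09 and -0.04.

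The identifiers most like the 2 named members were sought among the tested identifiers outside the members. Likeness was taken as the root-mean-square distance between their 9 log2 levels after each was centred on its mean. For uc003uxt.4 the 3 nearest were at distances of 0.50, 0.52 and 0.60, with Pearson correlations of 0.96, 0.95 and 0.98 over the 9 libraries, and mock means of 345, 624 and 515. For uc001qlq.2 they were at 0.55, 0.65 and 0.69, with correlations of 0.96, 0.95 and 0.86. Points of a correlation share the line and the mock library they come from, so it is given as a description. The other members were left out of this search, so the 6 say nothing on likeness among members.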

How the data were processed

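Per the labels' protocols, bromouridine-labelled RNA was immunoprecipitated and sequenced as paired 151-bp reads. The submitters' processing notes list, without saying what each did, the aligner STAR (version 2.7.7a), the tag-counting suite HOMER (version 4.8.2) and the human build hg38 (GRCh38). The handling of overlapping genes and of strands in the counting was not given in these sources. The authors deposited, per library, the signal (normalised coverage) in 1001 bins of 200 bp around each listed start. Tables of averages over gene sets were not used here. Bin rounding residues under 1e-06 were set to 0.

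From the deposited signal, means over windows were taken as log2(signal + 0.5), and differences were made against the mock library of the same line. Lines were compared with limma 3.58.1 in R 4.3.3 (lmFit and eBayes with trend, 4 residual degrees of freedom, Benjamini-Hochberg adjustment over all identifiers tested), which was checked on simulated data. Signal is not a count, so no count model was used. Alternatives changed the pseudocount, limits, windows, scaling, level filter, block and libraries.

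The members and lists were chosen with earlier results of these data known. 0 of 7936 identifiers matched the gene table, so the marker and pathway lists and the check of STK19 could not be applied, and no sequence is shown. By the naming rule, only the member with the highest mock signal and the one with the lowest mean difference are given by identifier. Other members named by number were chosen after their values were seen.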

Additional observations from a re-analysis of the deposited data

Results flagged for a closer look

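In 3 members the change from 3 h to 16 h over 0 to 10 kb ran in opposite directions between lines, with 1 library per line and time, and the difference between lines was not tested. Member 3 changed by -1.87 in WT and -2.02 in KO but by 0.28 in rescue (log2). Member 4 changed by -0.43 in WT and -0.22 in KO but by 0.88 in rescue. Member 7 changed by 0.25 in WT but by -0.52 in KO and -0.33 in rescue. Only the 9 members with a mock mean of 10 or more were looked at in this way.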

How the results depend on the processing

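The number of members, 25, was 45 at a limit of -0.6, 45 at a mock minimum of 1, 15 at a mock minimum of 4, 59 with trimmed-mean scaling (factors 0.789 to 1.33) and 52 with differences centred on the median; all 25 were kept in each but the minimum of 4. Leaving out a line gave 35 to 60, and leaving out the KO 3 h library, an alternative added after seeing the data, gave 32 (all 25 among them). Windows of 0 to 5 kb and 0 to 25 kb gave 24 and 31 members, of which 14 and 17 were among the 25. The number whose start fell, 22, stayed between 20 and 24 in its 11 alternatives. The number whose upstream flank fell, 14 of 19, was 9 of 17 from 25 to 5 kb and changed by less than 1.5 times in the other 11. Levels in KO against WT (196 identifiers) gave 35 without the level filter, 7 without the condition block, 15 to 752 without 1 condition, 108 in a fit of only those 2 lines and 71 without the KO 3 h library. Rescue against WT (250) gave 46, 3, 10 to 1020 and 162 under the first 4 of these. Rescue against KO (0 in limma, 43 unadjusted) gave 0 to 1 without 1 condition. Start over body in KO against WT (0 in limma, 135 unadjusted) gave 0 to 1 without 1 condition and 1 in a fit of only those 2 lines. The cause of these shifts was not tested. No paired analysis was possible because every line and condition has 1 library, so replicate numbers pair no samples; the lines were instead compared within conditions, by the condition block. Depth limits the sparse members most in KO 3 h, where 1 step is worth 0.0976 over 0 to 10 kb and 0.976 over 1 kb.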
